A study of Sus scrofa with 24 samples.

Results

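Genes of glycolysis, gluconeogenesis and glycogen metabolism were examined in the liver of fattening pigs given androgen esters. The set was a list of 41 gene symbols, and its members were the rows of the deposited tables that carried a listed symbol. Of the 41, 24 were found by symbol among the 13463 genes of the tables, and PKM was found by an identifier that the reference table of gene names assigns to it. Of these 25 genes, 24 passed the filter on low counts and were tested together with all 8279 genes that passed, and HK2 did not pass. The other 16 (SLC2A2, HK1, PFKL, PFKFB3, ALDOC, PGAM1, PDK2, PCK1, FBP1, G6PC, GBE1, PPP1R3B, PPP1R3C, IRS1, IRS2 and FOXO1) were not analysed here, so the glucose transporter, phosphofructokinase and glucose-6-phosphatase forms typical of liver, and the cytosolic form of phosphoenolpyruvate carboxykinase, are outside the values below.

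RNAseq data came from 24 livers, with 1 library per pig and 8 pigs in each of 3 treatments. Sustanon, a preparation of testosterone esters, was injected at 4 mg/kg in 3 castrated boars, 3 sows and 2 uncastrated boars. Myodin, a preparation of a nandrolone ester, was injected at 5 mg/kg in 2 castrated boars, 3 sows and 3 uncastrated boars, and the untreated controls were 3 castrated boars, 3 sows and 2 uncastrated boars. All were hybrids of Large White, Landrace and Duroc, the females were young animals called sows in the labels, and the liver pieces were not sorted into cell types. Treated and control pigs were housed apart, so that housing and treatment cannot be told apart, and the 2 preparations differ in dose as well as in steroid. Nandrolone is testosterone that lacks a methyl group.

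The liver takes up glucose, stores it as glycogen and breaks it down by glycolysis, and in fasting it releases glucose made by gluconeogenesis or freed from glycogen. Most steps of glycolysis are reversible and shared by both directions. At the other steps separate enzymes set the direction (hexokinase against glucose-6-phosphatase, phosphofructokinase against fructose bisphosphatase, pyruvate kinase against pyruvate carboxylase with phosphoenolpyruvate carboxykinase). Insulin favours storage and glycolysis, and pyruvate dehydrogenase kinases, which rise in fasting, keep pyruvate away from oxidation.

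Library totals ranged from 9267780 to 14017276 counts. Hepatocyte markers made up most of the signal of the marker lists, with a summed level of 144439 to 241295 TPM (transcripts relative to library size and length) over 8 of 12 listed genes with a row, and the 4 skeletal muscle markers with a row summed to between 1.13 and 4.03 TPM. Counts of the Y-linked genes KDM5D and EIF1AY went against the labelled sex in 3 control libraries. The libraries labelled control sow 16 and control sow 18 had 35 and 95 counts of KDM5D and 476 and 434 counts of EIF1AY, and the library labelled control castrated boar 15 had 0 and 1. The labels were kept. For members with an unadjusted p under 0.05 and for called genes of the same pathways, the difference is also given without these libraries, which leaves 5 control pigs. In tissue pieces, fewer cells of a type and less RNA per cell cannot be told apart.

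The members ALDOA, GAPDH and PGK1, were also primer targets of the study as candidate reference genes for PCR, and their primers are shown because a reference gene is chosen for a level that does not move. Each line gives the forward and the reverse primer from 5′ to 3′.
ALDOA forward: ccacgagacgctctaccagaa
ALDOA reverse: cacacccttgtccaccttgat
GAPDH forward: ccatcttccaggagcgagatc
GAPDH reverse: gccttctccatggtcgtgaa
PGK1 forward: ccactgtggcctctggtatacc
PGK1 reverse: aatctgcttagcccgagcaa

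The members spanned a wide range of levels in liver. On the TPM scale, which is per transcript length, GAPDH (glyceraldehyde-3-phosphate dehydrogenase) had the highest median over the 24 pigs, 1947 TPM. It was followed by PCK2, the mitochondrial phosphoenolpyruvate carboxykinase, with 625 TPM, by GYS2, the liver glycogen synthase, with 490 TPM, and by ENO1, an enolase, with 459 TPM. PC, pyruvate carboxylase, had a median of 432 TPM and SLC37A4, the carrier that brings glucose 6-phosphate into the endoplasmic reticulum, 372 TPM. The ranges of PCK2 (417 to 869.5 TPM) and GYS2 (270 to 811 TPM) overlapped widely, so the order of their medians need not hold in each pig. The lowest GAPDH value (1402 TPM) lay above every value of every other member.

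HK2, PFKM, INSR (the insulin receptor, with a median of 10.6 TPM) and ALDOA were at the low end. PFKM, the muscle phosphofructokinase, had a median of 5.03 TPM, ALDOA, the aldolase of muscle and most tissues, 12.8 TPM, and HK2, the hexokinase of muscle and fat, 0.12 TPM with a range of 0.03 to 0.86 TPM. PKM, the form of muscle and most other tissues, had a median of 30.6 TPM and PKLR, the form of liver and red blood cells, 26.8 TPM, and PKM was the higher of the pair in 19 of 24 pigs. LDHA, one lactate dehydrogenase subunit, exceeded LDHB, the other, in all 24 pigs, with a median ratio of 4.97 and a range of 1.07 to 28.9. GYS2 exceeded PYGL, the liver glycogen phosphorylase, in every pig, with a median ratio of 3.85.

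**Figure D1:**
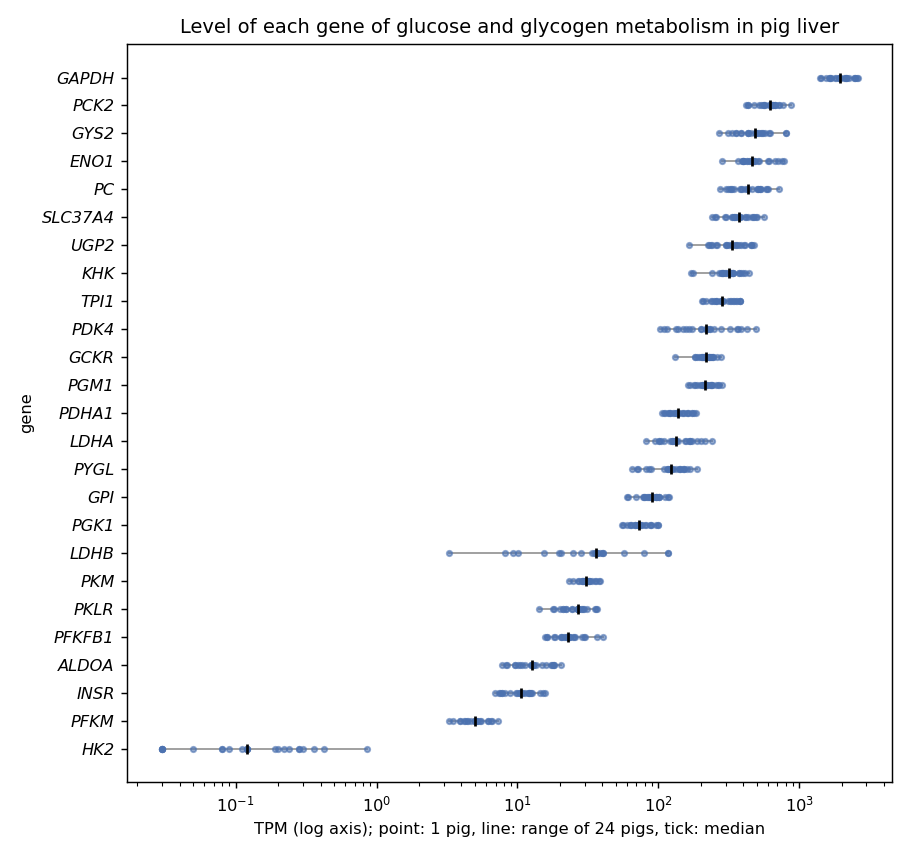
Level of the 25 members with a row in the tables, in TPM on a log axis, with 1 point per pig, a line over the range of 24 pigs and a tick at the median. GAPDH is at the top with a median of 1947 TPM and HK2 at the bottom with 0.12 TPM, and LDHB has the widest range of the members tested, from 3.28 to 116.9 TPM.

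Several members are close together in the genome (Sscrofa11.1, RefSeq gene limits). GCKR (chr3:111649557-111683539) and KHK (chr3:112021163-112031615) are near each other, as are TPI1 (chr5:63839473-63842853) and GAPDH (chr5:64129678-64135194), and a LDHB locus (chr5:51810932-51831218) lies next to GYS2 (chr5:51862952-51915153). LDHB has 2 loci in the reference table, the other at chr2:12988754-12990033, and how reads were shared between near-identical copies was not given in the sources used here, so the LDHB values are uncertain. PFKFB1, PGK1 and PDHA1 are on the X chromosome.

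Spread between pigs, as the residual SD of log2 CPM (counts relative to library size) after treatment and class, ranged from 0.13 for PKM to 1.22 for LDHB. PDHA1, the E1 alpha subunit of pyruvate dehydrogenase, had an SD of 0.15, PFKM of 0.19 and PGK1 (phosphoglycerate kinase) of 0.19. Of the 24 members, 11 varied less than the median gene, whose SD was 0.28. LDHB stood at percentile 98.9 of all genes tested, PDK4, a pyruvate dehydrogenase kinase, at 84.2 with an SD of 0.52, and UGP2, which makes the UDP-glucose used for glycogen, at 81.5 with an SD of 0.48. Among the candidate reference genes, PGK1 was at percentile 18.4, GAPDH at 29.0 and ALDOA at 64.4.

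**Figure D2:**
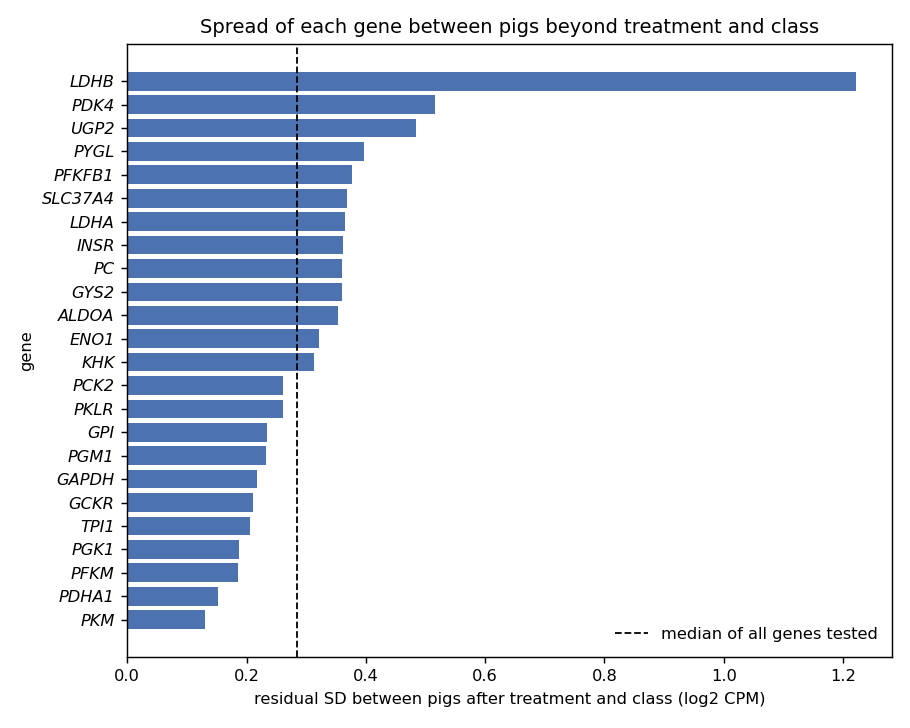
Residual SD of log2 CPM between pigs after treatment and class for the 24 members tested, one bar per gene, with a dashed line at the median of all genes tested (0.28). LDHB has the longest bar, 1.22, and PKM the shortest, 0.13.

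Sustanon was compared with control to see how testosterone esters alter this pathway in liver. By edgeR, with p-values adjusted over all 8279 genes, none of the 24 members was below 0.05, whereas 5.07% of all genes did. At an unadjusted p under 0.05 there were 4 members (16.7%) beside 19.6% of all genes, so the share of members was not above that of the background. By DESeq2 PDK4 was called, and by limma on the deposited log2 values 0 members were. The log2 fold changes of the members ran from -0.75 to 0.43 with a median of -0.09 (all genes, -0.01), 6 were above and 18 below 0, and for 22 of 24 the 95% interval lay within a 2-fold change in both directions.

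PDK4 (chr9:75246956-75260134), a kinase that switches off pyruvate dehydrogenase and is known as a gene of fasting, was the member with the lowest value relative to control in both treatments. Control pigs ranged from 287 to 1201 CPM with a median of 682 CPM, Sustanon pigs from 278 to 543 CPM with a median of 392 CPM, and Myodin pigs from 243 to 785 CPM with a median of 414 CPM. The libraries labelled control sow had 1201, 869 and 640 CPM, above every treated sow, the highest of which had 511 CPM. The first and the last of these are control libraries 16 and 18, whose Y-linked counts go against the label, and without them control sow 17 (869 CPM) alone was left. Control uncastrated boar 27 (287 CPM) was at the level of the lowest treated pigs, and Myodin uncastrated boar 22 (785 CPM) was above most controls, so the groups overlapped. The log2 fold change was -0.75 (SE 0.25) for Sustanon, with an adjusted p of 0.0756 by edgeR, and -0.73 (SE 0.25) for Myodin, with an adjusted p of 0.491. Both comparisons use the same 8 controls. Without control libraries 15, 16 and 18 the values were -0.57 (adjusted p 0.345) and -0.55 (adjusted p above 0.99), and without control uncastrated boar 27 alone PDK4 passed for Sustanon at -0.87 (adjusted p 0.0269).

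PFKM (chr5:78475473-78525052) was the member with the smallest p in both comparisons with control. Its level ranged from 8.68 to 11.6 CPM in controls, from 7.08 to 10.5 CPM in Sustanon pigs and from 6.21 to 10.1 CPM in Myodin pigs, and 6 of 8 Sustanon pigs and 5 of 8 Myodin pigs were below the lowest control. The log2 fold change was -0.34 (SE 0.11) in both comparisons, with an adjusted p of 0.0705 for Sustanon and 0.462 for Myodin (edgeR). It passed for Sustanon when Sustanon castrated boar 1 (10.5 CPM, the highest of its group) was left out, at -0.41 with an adjusted p of 0.0254, and when Myodin uncastrated boar 23 was left out, at -0.34 with an adjusted p of 0.0464. Without control libraries 15, 16 and 18 it was -0.40 for both treatments, with an adjusted p of 0.154 for Sustanon and above 0.99 for Myodin.

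PFKFB1, the liver form of the enzyme that makes and removes fructose 2,6-bisphosphate, and PKLR were the members with a higher value under Sustanon at an unadjusted p under 0.05. PFKFB1 ranged from 31.0 to 103.3 CPM in Sustanon pigs and from 35.2 to 54.7 CPM in controls, and Sustanon sow 4 (103.3 CPM) and Sustanon castrated boar 2 (80.7 CPM) were the highest. Its log2 fold change was 0.43 (SE 0.18, adjusted p 0.178 by edgeR), and 0.28 without Sustanon sow 4 and also by limma. PKLR (chr4:94536978-94546561) ranged from 69.8 to 102.2 CPM with a median of 91.1 CPM in Sustanon pigs, from 58.6 to 93.5 CPM with a median of 71.3 CPM in controls, and from 45.4 to 85.9 CPM with a median of 69.1 CPM in Myodin pigs. The 3 Sustanon sows (90.5, 91.6 and 95.2 CPM) and the 2 Sustanon uncastrated boars (102.2 and 101.2 CPM) were above every Myodin pig, whereas the 3 Sustanon castrated boars (69.8, 81.3 and 73.0 CPM) were within the Myodin range. The log2 fold change of PKLR was 0.27 against control (SE 0.13, adjusted p 0.249) and 0.35 against Myodin (SE 0.13, adjusted p 0.163). Leaving out control libraries 15, 16 and 18, PFKFB1 was at 0.46 (adjusted p 0.338) and PKLR at 0.21 against control (0.583) and 0.35 against Myodin (0.186). Its counterpart PKM was at -0.08 against control (SE 0.07, adjusted p 0.616).

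The members of gluconeogenesis and glycogen turnover that could be measured did not pass under Sustanon. PCK2 had a log2 fold change of -0.21 (95% interval -0.52 to 0.10), PC of -0.14 (-0.49 to 0.21) and SLC37A4 of -0.07 (-0.45 to 0.30). GYS2 was at 0.25 (-0.10 to 0.60), PYGL at 0.31 (-0.07 to 0.69) and INSR, the insulin receptor, at -0.07 (-0.44 to 0.29). GCKR, the protein that holds glucokinase inactive in the nucleus, was at -0.08 (-0.33 to 0.16) and KHK, the kinase of fructose, at -0.26 (-0.60 to 0.07). Of the candidate reference genes, GAPDH was at 0.22 (-0.02 to 0.46), ALDOA at -0.25 (-0.59 to 0.09) and PGK1 at -0.13 (-0.38 to 0.12). These intervals leave room for changes of less than 2-fold in each of these genes.

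**Figure D3:**
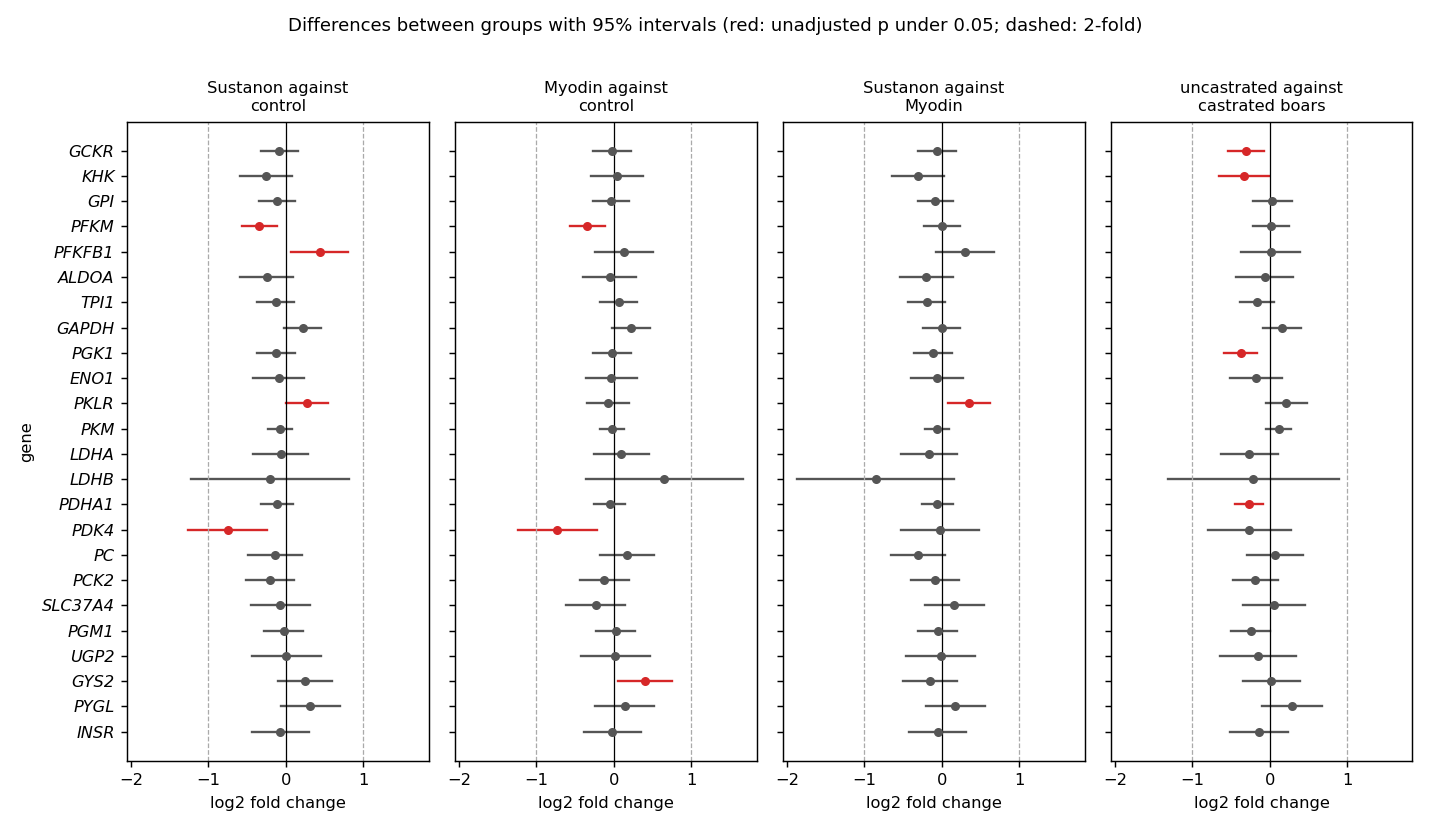
Log2 fold change of each of the 24 members tested in 4 comparisons, with 95% intervals, ordered by role from hexokinase control at the top to the insulin receptor at the bottom. Red marks an unadjusted p under 0.05, which 4, 3, 1 and 4 members had from left to right, and none had an adjusted p under 0.05 (edgeR).

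Myodin was compared with control to ask the same for the nandrolone ester. By edgeR 0% of all genes, and so none of the 24 members, passed an adjusted p of 0.05. At an unadjusted p under 0.05 there were 3 members (12.5%) beside 7.21% of all genes, 0 members were called by DESeq2 or by limma, and over all genes DESeq2 called 1 gene. Besides PDK4 and PFKM the third was GYS2, which ranged from 676 to 1714 CPM in Myodin pigs and from 604 to 1049 CPM in controls. Myodin sows 10 and 11 (1714 and 1503 CPM) and Myodin castrated boar 9 (1235 CPM) were above all controls, and the log2 fold change was 0.40 (SE 0.17, adjusted p 0.615), or 0.33 without control libraries 15, 16 and 18 (adjusted p above 0.99). The members' median log2 fold change was -0.02, with 11 above and 13 below 0, and for 22 of 24 the 95% interval lay within 2-fold.

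LDHB had the largest positive value under Myodin and the widest spread within the group. It ranged from 2.45 to 91.9 CPM in Myodin pigs, from 14.6 to 33.9 CPM in controls and from 6.55 to 63.0 CPM in Sustanon pigs. Myodin castrated boar 8 (91.9 CPM) and Myodin uncastrated boar 22 (84.1 CPM) were the highest of all 24 pigs, and Myodin uncastrated boars 23 and 24 (2.45 and 8.36 CPM) were among the lowest. The log2 fold change was 0.65 (SE 0.49) against control, and -0.85 (SE 0.49, adjusted p 0.366) for Sustanon against Myodin. Against control it was 0.35 without Myodin castrated boar 8 and 0.05 by limma on the deposited log2 values, and leaving out Myodin uncastrated boar 22 also lowered it by over 1.5 times. For Sustanon against Myodin it ran from -1.29 without Sustanon sow 4 to -0.55 without Myodin castrated boar 8, and was -0.53 by limma.

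Sustanon and Myodin, which were given at different doses, were also set side by side. Of the 24 members 0 passed an adjusted p of 0.05 by edgeR, by DESeq2 or by limma, beside 0.664% of all genes by edgeR. PKLR alone (4.17%) had an unadjusted p under 0.05, against 18.1% of all genes. For 23 of 24 members the 95% interval lay within 2-fold, the exception being LDHB, and for 19 it lay within 1.5-fold. The difference was 0.00 for PFKM (95% interval -0.23 to 0.23), -0.02 for PDK4 (-0.53 to 0.49) and -0.00 for GAPDH (-0.24 to 0.24) on the log2 scale.

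Uncastrated boars were compared with castrated boars over all treatments, with treatment as a term in the model, to look at the boar's own testes. No member passed by edgeR, whereas 1.88% of all genes did, and 4 members (16.7%) beside 17.9% of all genes had an unadjusted p under 0.05, all of them lower in uncastrated boars. By DESeq2 PGK1 and PDHA1 were called and by limma 0 members were. The members' median log2 fold change was -0.15 (all genes, 0.02), with 10 above and 14 below 0.

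PGK1 (chrX:62187472-62210321) came closest. Boars labelled castrated ranged from 163 to 232 CPM with a median of 185 CPM. Those labelled uncastrated ranged from 127 to 158 CPM with a median of 152 CPM. By label the 2 classes did not overlap, over treatments that were mixed within both. The share of all genes without overlap was not counted. Control castrated boar 15 had Y-linked counts that go against its label. Sows ranged from 134 to 222 CPM, with both extremes in control libraries 18 and 16, and from 134 to 186 CPM without these. Both libraries had Y-linked counts, and whether they came from castrated pigs is not known. The value of 134 CPM lies within the range of uncastrated boars, so the separation rests on the labels. The log2 fold change was -0.38 (SE 0.10, adjusted p 0.0533 by edgeR). Leaving out control libraries 15, 16 and 18 together gave -0.40 with an adjusted p of 0.0273, and PGK1 also passed when any one of Sustanon castrated boar 2, Myodin uncastrated boar 22 and control libraries 15, 16 and 18 was left out, with adjusted p from 0.0264 to 0.0497.

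PDHA1, which like PGK1 is on the X chromosome, ranged from 229 to 329 CPM in castrated and from 201 to 280 CPM in uncastrated boars, with a log2 fold change of -0.27 (SE 0.09, adjusted p 0.114). The third X-linked member, PFKFB1, had 0.01 (SE 0.18). GCKR ranged from 264 to 371 CPM in castrated boars and from 177 to 288 CPM in uncastrated boars, with -0.31 (SE 0.11, adjusted p 0.143), and its neighbour KHK had -0.34 (SE 0.16, adjusted p 0.256). By limma PDHA1 was at -0.15 and KHK at -0.19. PDHA1 was at -0.29 (adjusted p 0.105), GCKR at -0.28 (0.217) and KHK at -0.35 (0.270) without control libraries 15, 16 and 18. The lowest value of both GCKR and KHK among Myodin pigs was in Myodin uncastrated boar 23 (177 and 230 CPM).

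**Figure D4:**
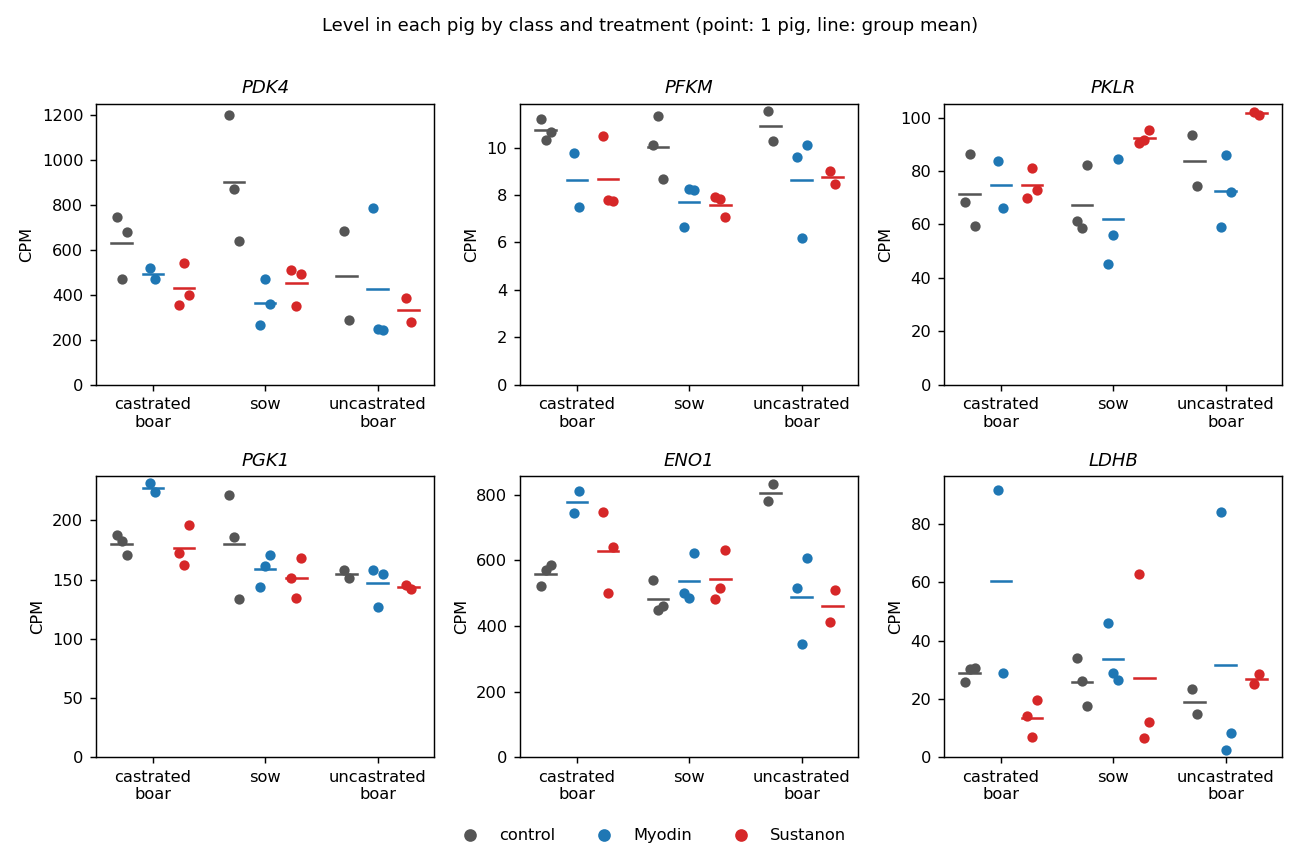
CPM in each pig for 6 members, by class and treatment, with 1 point per pig and a line at the group mean. PDK4 is highest in libraries labelled control sow (640 to 1201 CPM), of which 16 and 18 have Y-linked counts that go against the label. PGK1 separates boars labelled castrated from those labelled uncastrated at 158 to 163 CPM, and the label of control castrated boar 15 also goes against its Y-linked counts. ENO1 is high in the 2 control uncastrated boars (780 and 832 CPM), and LDHB is scattered from 2.45 to 91.9 CPM.

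Pigs without testes by label, that is castrated boars and sows, were then compared by themselves, in a fit of the 9 groups of treatment and class. Control libraries 16 and 18, labelled sow, had Y-linked counts, so whether these controls lacked testes is not known. For Sustanon none of the 24 members passed an adjusted p of 0.05 by edgeR, DESeq2 or limma, beside 5.6% of all genes by edgeR, and 3 members (12.5%) beside 20.1% of all genes had an unadjusted p under 0.05. These were PDK4 at -0.78 (SE 0.28, adjusted p 0.116), PFKM at -0.35 (SE 0.14, adjusted p 0.139) and PFKFB1 at 0.50 (SE 0.21, adjusted p 0.174). PDK4 passed when Myodin uncastrated boar 22, a library outside the comparison that enters the shared estimate of spread, was left out (-0.78, adjusted p 0.0321), and PFKFB1 was at 0.27 without Sustanon castrated boar 2. Without control libraries 15, 16 and 18 PDK4 was at -0.73 (adjusted p 0.391), PFKM at -0.45 (0.249) and PFKFB1 at 0.54 (0.417). LDHB had -0.51 (SE 0.60), from -1.28 without Sustanon sow 4 to -0.27 without Sustanon sow 5, was lower in size by over 1.5 times without Sustanon sow 6, and was -0.80 by limma.

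For Myodin in pigs without testes, 0 of 24 members passed an adjusted p of 0.05 by edgeR, DESeq2 or limma, and 0.0604% of all genes passed by edgeR. At an unadjusted p under 0.05 there were 7 members (29.2%) beside 10.9% of all genes. The members' share was above that of all genes here, and no test was made of that difference. Of the 7, 4 were higher with Myodin. GYS2 was at 0.57 (SE 0.19, adjusted p 0.247), LDHA at 0.41 (SE 0.15), GAPDH at 0.35 (SE 0.14) and ENO1 at 0.31 (SE 0.14). The other three were lower, PDK4 with -0.83 (SE 0.30), SLC37A4 with -0.49 (SE 0.21) and PFKM with -0.35 (SE 0.14), and the adjusted p of the 7 members ran from 0.247 to 0.439. GYS2 fell to 0.33 without Myodin castrated boar 9. Without control libraries 15, 16 and 18 GYS2 was at 0.46, LDHA at 0.32, GAPDH at 0.42, ENO1 at 0.38, PDK4 at -0.78, SLC37A4 at -0.44 and PFKM at -0.44, with adjusted p from 0.823 to 0.882. LDHB had 0.73 (SE 0.63, adjusted p 0.720), and 0.20 without Myodin castrated boar 8.

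GAPDH (chr5:64129678-64135194) did not overlap between these groups, and the share of all genes without overlap was not counted. The 5 Myodin pigs had 1885 and 2051 CPM (castrated boars) and 1605, 1607 and 1719 CPM (sows), and the 6 controls ranged from 1297 to 1523 CPM, with an adjusted p of 0.360. The 2 control uncastrated boars had 1864 and 1664 CPM and the 3 Myodin uncastrated boars 1538, 1450 and 2109 CPM, so that the groups overlapped there. LDHA was highest in Myodin castrated boar 8 (263 CPM), Myodin sow 11 (209 CPM) and Myodin castrated boar 9 (208 CPM), while Myodin sow 12 had 112 CPM, below every control. SLC37A4 was at 419 and 502 CPM in the Myodin castrated boars and at 682, 464 and 609 CPM in the Myodin sows, against 591 to 915.5 CPM in the 6 controls, so 3 of these 5 pigs were below all controls.

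Whether the Sustanon effect differed with and without testes was tested as an interaction, with the classes as labelled and control libraries 16 and 18 again among the sows. By edgeR 0.0604% of all genes and 0 of 24 members passed an adjusted p of 0.05, by DESeq2 and limma 0 members passed, and 1 member (4.17%) beside 7.43% of all genes had an unadjusted p under 0.05. This was ENO1 (chr6:69385879-69401664), with an interaction of -0.98 (SE 0.27, unadjusted p 0.00187, adjusted p 0.286), or -1.04 without control libraries 15, 16 and 18 (adjusted p 0.482). The 2 control uncastrated boars had 780 and 832 CPM and the 2 Sustanon uncastrated boars 412 and 510 CPM, whereas without testes controls ranged from 449 to 585 CPM and Sustanon pigs from 484 to 747 CPM. The interaction values of KHK (-0.59, SE 0.32), LDHB (1.0, SE 1.2), UGP2 (0.73, SE 0.48) and INSR (0.57, SE 0.39) had adjusted p from 0.709 to 0.866. Single pigs moved 3 of these by over 1.5 times. KHK ran from -0.93 without Sustanon uncastrated boar 20 to -0.31 without Sustanon uncastrated boar 19, LDHB reached 1.77 without Sustanon sow 4, and INSR was at 0.35 without control uncastrated boar 25. With 2 uncastrated boars per arm the 95% interval lay within 2-fold for 14 of 24 members only.

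The remaining members are given by their ranges. Over all 24 pigs GPI (phosphoglucose isomerase) ranged from 214 to 391 CPM, TPI1 (triose phosphate isomerase) from 155 to 282 CPM and PGM1 (phosphoglucomutase) from 254 to 486 CPM, and none had an unadjusted p under 0.05 in any of the 7 comparisons. UGP2 ranged from 239.5 to 804.5 CPM, with both extremes in control libraries whose Y-linked counts go against their labels (sow 18 and castrated boar 15). INSR ranged from 23.1 to 60.5 CPM, and its highest value was also in control castrated boar 15. HK2 was at 0.088 to 2.66 CPM, too low for a comparison.

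The other genes of the same pathways were followed in 5 lists of 125 genes, of which 63 were tested. Under Sustanon 5 of 63 passed an adjusted p of 0.05 (7.94%, beside 5.07% of all genes), all 5 higher. Of these, 3 belonged to the 12 tested genes of the list of other glycolysis and fructose genes and 2 to the 15 of the other glycogen genes. None passed of the 15 genes of gluconeogenesis and pyruvate entry, the 6 pentose phosphate genes and the 15 insulin, glucagon and glucose regulators. At an unadjusted p under 0.05 there were 16 of 63, beside 19.6% of all genes. By list, in the order given, these were 4 of 12, 5 of 15, 2 of 15, 2 of 6 and 3 of 15. Under Myodin 0 of 63 passed by edgeR, with 9 of 63 at an unadjusted p under 0.05, beside 7.21% of all genes. No test was made of that difference.

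SORD, sorbitol dehydrogenase, which turns sorbitol into fructose, had the smallest p of these genes. It ranged from 1779 to 3529 CPM with a median of 2958 CPM in Sustanon pigs and from 1423 to 1883 CPM with a median of 1595 CPM in controls, and 7 of 8 Sustanon pigs were above every control, the exception being Sustanon castrated boar 3 (1779 CPM). Myodin pigs ranged from 1359 to 2527 CPM. SORD rose with Sustanon by 0.85 on the log2 scale (SE 0.14, adjusted p 0.00692), was higher than with Myodin by 0.73 (SE 0.14, adjusted p 0.0321), and had 0.13 for Myodin against control (SE 0.14, adjusted p 0.910). In pigs without testes the 6 Sustanon and 6 control pigs did not overlap (0.85, SE 0.15, adjusted p 0.00333), and the share of all genes without overlap was not counted. The call against control held when any single pig was left out (adjusted p from 0.00121 to 0.0241) but was lost without control libraries 15, 16 and 18 together (0.83, adjusted p 0.102, and 0.85, adjusted p 0.0782, in pigs without testes), while that against Myodin was lost without any one of 7 pigs (Sustanon castrated boar 2, sows 5 and 6 and uncastrated boar 20, Myodin castrated boar 8 and sows 10 and 11) and with only the groups compared in the fit. SORD against Myodin was at 0.72 (adjusted p 0.0444) without control libraries 15, 16 and 18.

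ENO2, an enolase best known from neurons, ranged from 0.908 to 4.00 CPM in controls and from 2.64 to 15.5 CPM in Sustanon pigs, and rose by 1.71 (SE 0.40, adjusted p 0.0168), and by 1.68 in pigs without testes (SE 0.32, adjusted p 0.00468). Limma on the deposited log2(TPM + 1) gave 0.98 and 0.90, both still past an adjusted p of 0.05. ENO1 exceeded it by a median ratio of 388 in TPM.

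LDHD, the dehydrogenase of D-lactate, was higher by 0.77 (SE 0.22, adjusted p 0.0461), PHKA2, the liver regulatory subunit of phosphorylase kinase, by 0.65 (SE 0.17, adjusted p 0.0223) and PHKB, its beta subunit, by 0.29 (SE 0.09, adjusted p 0.0469) with Sustanon. PHKA2 lost its call without Sustanon sow 5 or Sustanon uncastrated boar 19, LDHD without any one of 16 of the 24 pigs and PHKB without any one of 17. LDHD and PHKB also lost their calls by limma and without the count filter. In pigs without testes 3 of 63 list genes passed for Sustanon (4.76%, beside 5.6% of all genes), SORD, ENO2 and TKFC. TKFC, which phosphorylates glyceraldehyde from fructose, was higher there by 0.47 (SE 0.13, adjusted p 0.0379) and lost its call without any one of 8 pigs and without the count filter. Without control libraries 15, 16 and 18 no gene passed for Sustanon over all pigs, and these genes kept their sign with ENO2 at 1.52 (adjusted p 0.155), PHKA2 at 0.66 (0.137), LDHD at 0.73 (0.225) and PHKB at 0.25 (0.211). In pigs without testes 73 genes then passed, with SORD, ENO2 at 1.62 (adjusted p 0.0863) and TKFC at 0.61 (0.0852) not among them.

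**Figure D5:**
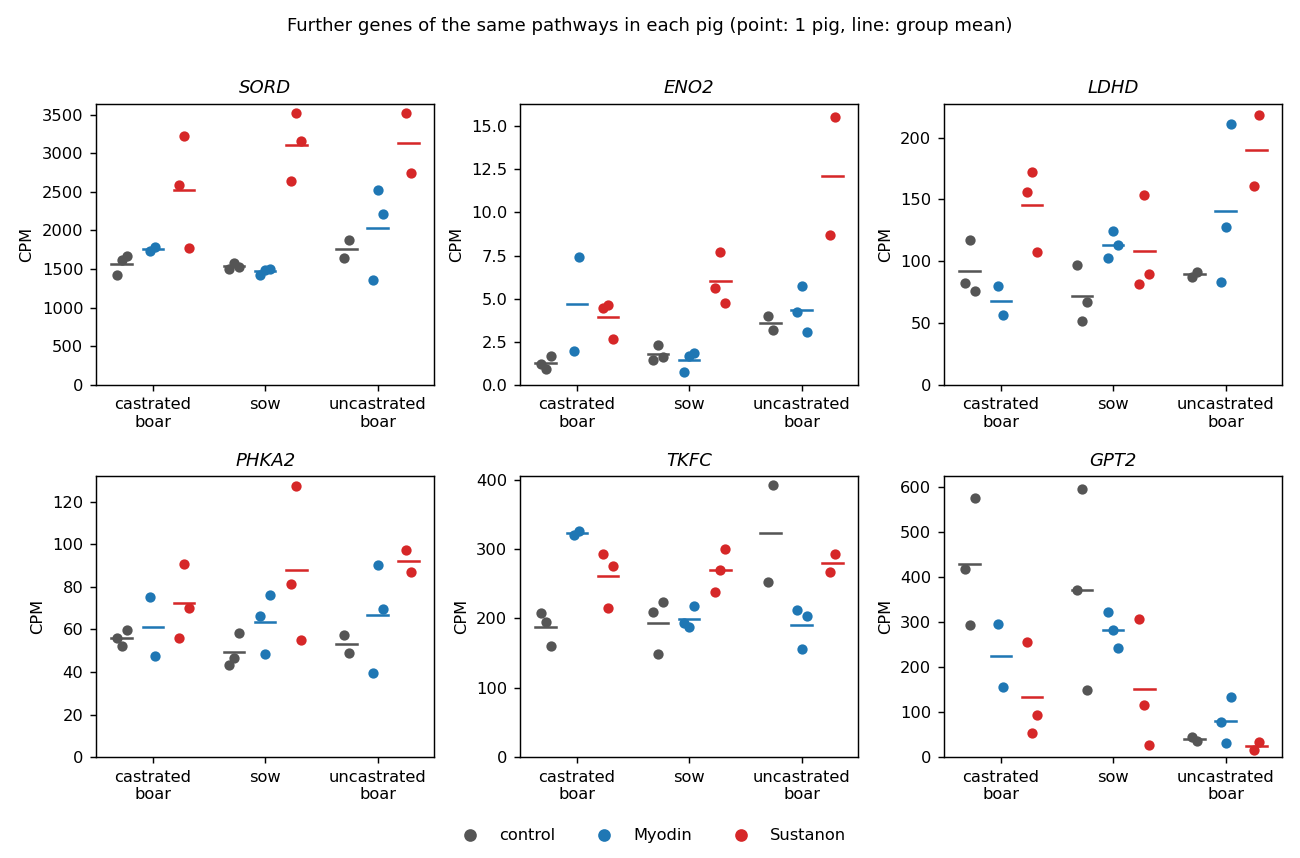
CPM in each pig for 6 genes of the same pathways that are not on the list of 41, by class and treatment, with 1 point per pig and a line at the group mean. SORD and ENO2 are higher in Sustanon pigs than in controls of the same class, with the smallest gap for SORD in castrated boars (1779 against 1666 CPM, the latter in control library 15, whose Y-linked counts, like those of control sows 16 and 18, go against the label). GPT2 is low in uncastrated boars (16.6 to 133.7 CPM). Sustanon castrated boars 2 and 3 (52.6 and 93.2 CPM) and sows 5 and 6 (116.6 and 27.9 CPM) are also within that range. Sustanon castrated boar 1 and sow 4 (255 and 306 CPM) are above it.

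Between uncastrated and castrated boars 4 of the 63 list genes passed (6.35%, beside 1.88% of all genes), all lower in uncastrated boars. GPT2, the mitochondrial alanine aminotransferase that turns alanine into pyruvate, ranged from 16.6 to 133.7 CPM in uncastrated and from 52.6 to 576 CPM in castrated boars (417 CPM at most without control library 15, whose Y-linked counts go against the label) and fell by 2.36 on the log2 scale (SE 0.48, adjusted p 0.0116), a call that was kept without any single pig (adjusted p from 0.00915 to 0.0372) and without control libraries 15, 16 and 18 (0.0232). For Sustanon against control GPT2 was at -1.46 over all pigs (SE 0.61, adjusted p 0.177 by edgeR) and at -1.49 in pigs without testes (SE 0.49, adjusted p 0.0808). Between the boar classes GYG2, the liver glycogenin that primes glycogen, had -0.77 (SE 0.17, adjusted p 0.0202), DLD, a subunit of pyruvate dehydrogenase, -0.33 (SE 0.08, adjusted p 0.0321) and PGM3, listed with the phosphoglucomutases but active on N-acetylglucosamine phosphate, -0.57 (SE 0.15, adjusted p 0.0490). GYG2 lost its call without any one of 4 pigs (Myodin castrated boar 8, Myodin uncastrated boar 23, control uncastrated boars 25 and 27), DLD of 7 and PGM3 of 19. All 3 calls were lost by limma and with boars only, and those of DLD and PGM3 also without the count filter. With control libraries 15, 16 and 18 left out, GYG2 was at -0.67 (adjusted p 0.0452), DLD at -0.34 (0.0328) and PGM3 at -0.59 (0.0680, no longer called). Among the 12 tested leukocyte and Kupffer cell markers 0 passed by edgeR in this comparison, 5 had an unadjusted p under 0.05 (beside 17.9% of all genes) and the median was 0.25, with C1QA at 0.28 (adjusted p 0.246) and C1QC at 0.31 (0.214). Their part in the differences between the classes was not tested.

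Against Myodin 2 of 63 list genes passed (3.17%, beside 0.664% of all genes), SORD and FOXO3. FOXO3, a transcription factor held back by insulin, was higher with Sustanon, with 118 to 201 CPM in Sustanon and 63.8 to 141.5 CPM in Myodin pigs (0.75, SE 0.15, adjusted p 0.0321). The call was lost without any one of 9 pigs and with only the groups compared, and without control libraries 15, 16 and 18 it was 0.75 (adjusted p 0.0481). Controls lay between, from 101 to 145 CPM, with 0.35 for Sustanon (SE 0.15, adjusted p 0.206) and -0.40 for Myodin against control (SE 0.15, adjusted p 0.547). In pigs without testes FOXO3 had -0.63 for Myodin (SE 0.17, adjusted p 0.177), and all 5 Myodin pigs were below the 6 controls. The share of all genes with such a separation was not counted. Among the marker lists 1 of 8 tested hepatocyte markers passed for Sustanon, beside 5.07% of all genes. It was APOA2, which was higher than in controls (1.07, SE 0.28, adjusted p 0.0251) and lost its call without control libraries 15, 16 and 18. The list's median was 0.17, with APOC3 at -0.41 (adjusted p 0.144) and TAT at -0.29 (adjusted p 0.728). In Sustanon against Myodin 2 of 12 tested leukocyte and Kupffer cell markers passed, the macrophage genes C1QA (-0.62, SE 0.13, adjusted p 0.0321) and C1QC (-0.59, SE 0.13, adjusted p 0.0399), both lower with Sustanon. Both calls were lost without any one of Sustanon castrated boar 2, sows 5 or 6, uncastrated boar 20 or Myodin sow 10, where 0 genes passed. Against control both were at -0.07 with Sustanon (adjusted p 0.816 and 0.818), and with Myodin C1QA was at 0.55 and C1QC at 0.51 (adjusted p 0.346 for both). The stellate and stromal cell markers had a median of 0.77 for Sustanon against Myodin, with 0 of 5 passing. Of the 5, 3 had an unadjusted p under 0.05 (COL1A2, DCN and LUM), beside 18.1% of all genes. The list summed to 92.0 to 221 TPM with Sustanon, 62.8 to 192 TPM in controls and 59.0 to 172 TPM with Myodin. In Sustanon pigs without testes APOA2 was higher (0.96, SE 0.28, adjusted p 0.0472) and MS4A1, a B cell marker, lower (-1.16, SE 0.30, adjusted p 0.0292). Each was the only gene of its list to pass (1 of 8 and 1 of 12 tested), beside 5.6% of all genes. CD79A, the other B cell marker, was at 0.05 (SE 0.09, adjusted p 0.823), and the median of the 12 leukocyte and Kupffer cell markers was -0.14. The summed hepatocyte markers were at 189250 to 240958 TPM in Sustanon pigs, 186280 to 241295 TPM in controls and 144439 to 230029 TPM with Myodin. Their median log2 fold change was 0.39 for Sustanon against Myodin, where 0 of 8 passed. There 3 of 8 had an unadjusted p under 0.05, beside 18.1% of all genes. For Myodin against control the median was -0.19, with 0 of 8 passing and 2 at an unadjusted p under 0.05, beside 7.21% of all genes. The 12 leukocyte and Kupffer cell markers with a row were at 1262 to 1769 TPM with Sustanon, 1354 to 1757 TPM in controls and 1631 to 2650 TPM with Myodin. No defining hepatocyte or leukocyte marker with a row had a median count of 0. Their part in the differences above was not tested.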

How the data were processed

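RNAseq of liver was analysed from 24 pigs, 1 library each. The authors made stranded mRNA libraries, sequenced them in pairs, aligned the reads with STAR 2.5 to Sscrofa11.1 (submitters' processing notes) within docker4seq, and deposited a table of counts per gene without normalization and a table of log2(TPM + 1), a pseudocount of 1. The counting tool was not given in the sources used here. The deposited log2 values were converted back to TPM, which sum to 989763 to 994408 per library, for levels. Of 13463 genes 3779 have no symbol, and 359 of these were named from the reference table of gene names. No column mapped to no sample.

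Counts were tested with the two-sided quasi-likelihood test of edgeR 4.0.16 (R 4.3.3) after TMM normalization and a filter on low counts (filterByExpr, by treatment), with Benjamini-Hochberg adjustment over 8279 genes, and a call is an adjusted p under 0.05. Treatments were compared in a fit of the 3 treatments, uncastrated with castrated boars in a fit of treatment and class, and pigs without testes and the interaction in a fit of the 9 groups, 7 comparisons in all. The study names DESeq2 for this step, with a log2 fold change beyond 1 in size, and both are alternatives. CPM use TMM library sizes, and log2 CPM a prior count of 2. The alternatives were DESeq2 1.42.0, limma 3.58.1 on the deposited log2 values, RLE normalization, no count filter, class as a covariate, only the groups compared, boars only, unadjusted p, the fold threshold, leaving out control libraries 15, 16 and 18, and each pig in turn. Replicates are separate pigs. The tests were tried on simulated data.

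Single values are given for members with an unadjusted p under 0.05 or a log2 fold change of 0.5 or more in size in any comparison, for enzymes of key steps and for candidate reference genes, and the other members by range. From the 5 pathway lists the genes with an adjusted p under 0.05 are named. The members, lists and the rule were chosen with earlier results of these data known. The 8 marker lists and 5 pathway lists were compiled by hand. A further gene of these pathways is not reported here. Primers were copied from the study's supplement, and gene limits from RefSeq.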

Additional observations from a re-analysis of the deposited data

Results flagged for a closer look

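In 72 sets of pigs (each of 24 members in each treatment, 8 pigs per set) a test for a single pig that stands apart (Dixon's, at its 95% critical value) marked 4, and chance marks about 1 in 20. GCKR was high in Sustanon sow 5, with 334 CPM against 285 CPM for the nearest pig and a ratio of gap to range of 0.578. LDHB was high in Sustanon sow 4, with 63.0 against 28.6 CPM and a ratio of 0.609. SLC37A4 was high in Myodin uncastrated boar 24, with 1029 against 682 CPM and a ratio of 0.548. PYGL was low in Sustanon castrated boar 1, with 136 against 264 CPM and a ratio of 0.692. No member was called in any of the 7 comparisons with these pigs included.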

How the results depend on the processing

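Alternatives were run for log2 fold changes of members with an unadjusted p under 0.05 or a size of 0.5 or more, and of called pathway genes, and none of these changed its sign. Other named values were not followed in this way, and the difference near 0 of PFKM between Sustanon and Myodin turned negative without control libraries 15, 16 and 18. Counts of called members were 0 of 24 in all 7 comparisons and stayed at 0 except as follows. For Sustanon against control they were 1 by DESeq2 and 1 with only the groups compared (PDK4 in both), 4 at an unadjusted p, and 0 to 1 with each pig left out (PFKM without Sustanon castrated boar 1 or Myodin uncastrated boar 23, PDK4 without control uncastrated boar 27). For uncastrated against castrated boars they were 2 by DESeq2, 1 without control libraries 15, 16 and 18, 4 at an unadjusted p, and 0 to 1 with each pig left out. At an unadjusted p they were 3 for Myodin against control, 1 for Sustanon against Myodin, 3 and 7 for Sustanon and Myodin in pigs without testes and 1 for the interaction, and for Sustanon in pigs without testes 0 to 1 with each pig left out (PDK4 without Myodin uncastrated boar 22).

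Counts over all genes moved more. Sustanon against control had 420, with 637 by DESeq2, 0 without control libraries 15, 16 and 18, 1625 at an unadjusted p, 129 with the fold threshold and 198 to 613 with each pig left out. It was over 1.5 times lower without Sustanon castrated boar 2, sow 5 or uncastrated boars 19 or 20, or control castrated boars 13, 14 or 15. Myodin against control had 0, with 1 by DESeq2 and 597 at an unadjusted p. Sustanon against Myodin had 55, with 36 without the count filter, 276 by DESeq2, 29 without the 3 control libraries, 1501 at an unadjusted p, 390 with class as a covariate, 9 with only the groups compared, 17 with the fold threshold and 0 (without Sustanon castrated boar 2, sows 5 or 6, uncastrated boar 20 or Myodin sow 10) to 541 (without Myodin uncastrated boar 23). Uncastrated against castrated boars had 156, with 370 by DESeq2, 73 with boars only, 1483 at an unadjusted p and 83 (without Myodin uncastrated boar 23) to 295 (without Myodin uncastrated boar 22). In pigs without testes Sustanon had 464, with 701 by DESeq2, 73 without the 3 libraries, 1668 at an unadjusted p and 278 (without Sustanon sow 5) to 572, and Myodin had 5, with 80 by DESeq2, 0 by limma, 0 without the 3 libraries, 899 at an unadjusted p and 0 to 15. The interaction had 5, with 45 by DESeq2, 0 without the 3 libraries, 615 at an unadjusted p and 0 to 11. Leaving out 1 pig moved the count over all genes by over 1.5 times for 7 of 24 pigs in Sustanon against control, 14 in Sustanon against Myodin, 5 in uncastrated against castrated boars, 3 for Sustanon and 14 for Myodin in pigs without testes, and 7 in the interaction. Leaving out the 3 libraries leaves 5 controls, and beyond that the causes were not tested. No paired analysis was possible because replicate numbers are not shared between groups.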
